A study of Mus musculus with 72 samples.

Results

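The response of the mouse melanoma line 1181-Grpr to gastrin-releasing peptide (GRP) was measured by RNA-seq in 6 of the 72 libraries of the series, 3 of mock-treated cells and 3 of cells exposed to GRP, picked by their labels. The male parental line, 1181, carries the Tyr::NRASQ61K transgene and is labelled Cdkn2a-/-, °/° and Cdh1dF/dF. In the paper's mouse genotypes °/° stands where mice with Cdh1 deleted in melanocytes carry the Tyr::CreA transgene. Line 1181-Grpr carries in addition CMV::Grpr/tGFP, a plasmid in which the viral CMV promoter drives a fusion of the GRP receptor and a green fluorescent protein. The cells were transfected with this plasmid and selected with geneticin, and whether the line is 1 clone is not given in the sources used here. All groups spent 18 h in 0.5% serum before 4 h in 0.1% DMSO (mock), 10 nM GRP, 1 µM RC-3095 (RC, a GRPR antagonist) or both agents (GRP+RC). Other lines under the same treatments serve for comparison: 1181-Ctrl, which is line 1181 with a tGFP plasmid and no added receptor, 1014-Grpr, a female Tyr::NRASQ61K line with the same CMV::Grpr/tGFP plasmid, and 1014-Ctrl, its counterpart without the receptor. Lines 1057 and 1064, which make Grpr from their own gene, are cited for the genes called in 1181-Grpr. The paper describes 1014 as a line with E-cadherin and 1057 as a female line that lost it. Genotype thus also differs between the lines compared.

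GRP is a neuropeptide of the bombesin family. Its receptor, GRPR, couples through Gq proteins to phospholipase C, which releases calcium from internal stores and activates protein kinase C, and from there the MAP kinase pathway. Within minutes to hours such signalling is known to switch on immediate-early transcription factors (the Fos, Egr and Nr4a families), then feedback inhibitors, and, through the co-activators YAP and TAZ, genes of the matrix and cytoskeleton such as Ccn1.

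The 6 libraries held between 22493933 and 32859888 counts, with a median of 28112719, so that 3 counts, taken here as the lower limit of detection, corresponded to at most 0.133 CPM (counts scaled to the size of the library). Levels below are CPM with TMM scaling over all libraries of the series. A gene was called where its adjusted p was under 0.05 (edgeR quasi-likelihood test, Benjamini-Hochberg) and its log2 fold change above 1 in size, and ± after a log2 fold change is its standard error. The replicate number was a block in the fit, which also held the 3 RC libraries and 2 of the 3 GRP+RC libraries. The third GRP+RC library, replicate 2, went against its label and was left out: it had no count of Grpr or of the Y-linked gene Ddx3y, and 796 CPM of Xist, the RNA of the inactive X chromosome.

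The remaining 11 libraries of 1181-Grpr also departed from their labels. Xist stood at 192 to 251 CPM in them, against 0.028 to 0.639 CPM in the 12 libraries of 1181-Ctrl and 688 to 1248 CPM in 1014-Grpr. Cdkn2a, the gene labelled as deleted, stood at 16.9 to 22.7 CPM, against 1.29 to 2.26 CPM in 1181-Ctrl and 71.5 to 93.2 CPM in 1014-Grpr. The Y-linked Ddx3y was nevertheless present, at 36.9 to 63.0 CPM, against 55.7 to 87.3 CPM in 1181-Ctrl and no count in 1014-Grpr. Cdh1, which encodes E-cadherin, ranged from 9.74 to 25.2 CPM, against 14.4 to 27.0 CPM in 1181-Ctrl and 0.70 to 3.15 CPM in 1014-Grpr. What dF stands for in the label Cdh1dF/dF is not given in the labels, and transcripts of the gene were present in both lines that carry it. The paper lists line 1181 among its E-cadherin-positive cells.

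The same was seen over 2 sets of transcripts picked on the control lines alone. For the 39 genes found in 1014-Ctrl (mean of at least 10 CPM) and held to at most 3 counts in every 1181-Ctrl library, the median level in the 11 libraries of 1181-Grpr was 29.95% to 32.7% of that in 1014-Ctrl. For the 77 genes of the opposite kind, typical of line 1181, it was 60.7% to 67.0% of that in 1181-Ctrl. With sets picked at 10 CPM, mock and GRP libraries did not differ in either measure beyond their spread. With 1014-typical genes picked at a mean of at least 5 CPM, their level differed by -0.838 percentage points, GRP minus mock. The exact permutation test gave p = 0.1 there, the lowest that 3 against 3 can give. The values that follow are those at 10 CPM. The 1014-typical level was 31.6% ± 0.943 with GRP and 31.6% ± 0.215 with mock (SD, n = 3 each, exact permutation test, two-sided, p = 1, where 3 against 3 cannot give less than 0.1), and the 1181-typical level was 63.8% ± 1.96 and 63.0% ± 2.35 (exact permutation p = 0.5). None of the 16 genes called below was in either set, of which all 39 and all 77 members were tested. Levels in 1181-Grpr are therefore those of libraries labelled 1181-Grpr, and which cells carried a given transcript cannot be told apart in them, nor can fewer cells of a kind and less RNA per cell.

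**Figure D1:**
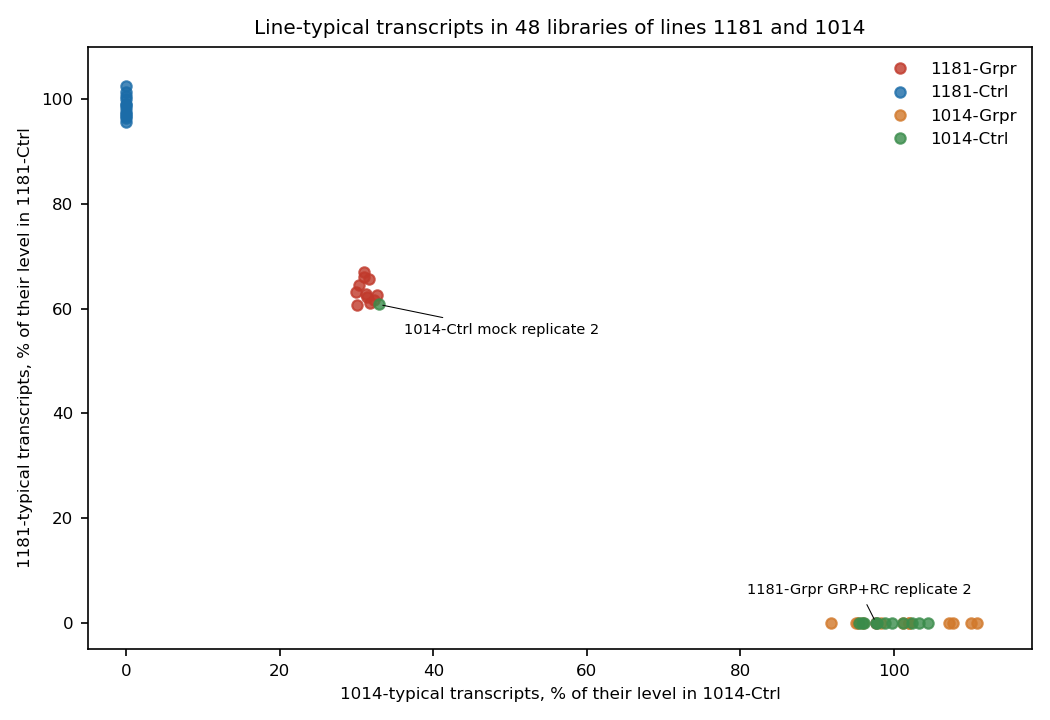
Level of the transcripts typical of line 1014 (39 genes, horizontal) and of line 1181 (77 genes, vertical) in the 48 libraries of both lines, as a percent of the mean in the matching control line. Each point is 1 library, coloured by line, and the pair of libraries that went against their labels is named. The 11 libraries of 1181-Grpr in the fit lie between 29.95% and 32.7% for the 1014-typical set and between 60.7% and 67.0% for the 1181-typical set, apart from both control lines, and the left-out library lies at 97.7% and 0%.

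GRP changed few genes in 1181-Grpr, and those past the fold threshold all rose. Of 14770 genes tested 16 were called (0.108% of genes), and all 16 were higher with GRP, among them Xirp1, Cd200r3, Myod1, Nos3, Grpr, Cd300lb, Tnc, Vgf, Plaur, Trim66, Mical2, Il33, Cyth4, Timp1 and Procr. By the adjusted p alone 61 genes were higher (0.413%) and 6 lower (0.0406%), and 1407 genes had an unadjusted p under 0.05. Over all genes tested the median log2 fold change was -0.003 and 48.2% were positive. They include the receptor itself and 4 genes of the list of pericellular proteolysis and matrix, and the other 11 are described after these.

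These calls rest on the block and on the libraries kept. Without the block no gene was called (edgeR, 110 genes at an unadjusted p under 0.05), and with the third GRP+RC library kept in the fit none was called (157 genes at an unadjusted p under 0.05). DESeq2, with the same libraries and block, called 8 genes, of which 3 (Myod1, Cd200r3 and Grpr) were among the 16.

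Grpr, on the X chromosome (chrX:163513904-163549677, minus strand, GRCm38), was the gene with the lowest p. It stood at 17.9, 8.96 and 8.46 CPM in mock replicates 1, 2 and 3 and at 80.7, 19.0 and 39.5 CPM in GRP replicates 1, 2 and 3. Every GRP library was above every mock library, although the lowest of them, replicate 2, exceeded the highest mock library by little. The log2 fold change was 1.95 ± 0.12 (adjusted p = 8.19e-10). Counts do not separate the gene on the plasmid from the cell's own. In 1014-Grpr, under the same promoter, Grpr rose by 2.09 ± 0.09 on the log2 scale (adjusted p = 5.34e-13), from 108 to 141 CPM with mock to 398 to 632 CPM with GRP. In the lines that use their own gene it fell, by 0.40 ± 0.04 in 1057 (adjusted p = 3.14e-08) and by 0.99 ± 0.12 in 1064 (adjusted p = 1.95e-04), again on the log2 scale. The mock libraries of 1181-Grpr held 14.3%, 7.15% and 6.75% of the mean Grpr level of mock-treated 1014-Grpr.

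Of the 16 genes, 4 act in proteolysis at the cell surface and in the matrix, and their GRP and mock libraries overlapped through GRP replicate 2. Timp1, which encodes a secreted inhibitor of metalloproteinases (chrX:20870166-20874735), stood at 5.08, 2.57 and 3.77 CPM with mock and at 14.8, 3.28 and 14.4 CPM with GRP, and rose by 1.48 ± 0.17 (adjusted p = 6.18e-05). Tnc, which encodes the matrix glycoprotein tenascin C (chr4:63959785-64047015), stood at 1.48, 0.75 and 1.19 CPM with mock and at 8.02, 0.82 and 3.54 CPM with GRP, and rose by 1.83 ± 0.25 (adjusted p = 6.72e-04). Plaur, the urokinase receptor (chr7:24462484-24475968), stood at 1.14, 1.37 and 2.45 CPM with mock and at 8.30, 1.50 and 6.03 CPM with GRP, and rose by 1.72 ± 0.29 (adjusted p = 0.00317). Replicates 1 and 3 of Timp1, Tnc and Plaur were well above mock, whereas replicate 2 stayed near it.

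Next are Mical2, Il33, Vgf and Procr. Mical2, an enzyme that oxidises actin filaments (chr7:112225856-112413106), stood at 3.14, 2.12 and 3.35 CPM with mock and at 11.7, 2.43 and 12.5 CPM with GRP, and rose by 1.60 ± 0.23 (adjusted p = 7.44e-04). Il33, an alarmin cytokine of the interleukin-1 family (chr19:29925114-29960718), stood at 1.31, 2.45 and 6.01 CPM with mock and at 10.7, 4.20 and 11.9 CPM with GRP, and rose by 1.57 ± 0.26 (adjusted p = 0.00284). Its mock libraries differed among themselves more than those of Mical2, and GRP replicate 2 lay within their range. Vgf, the precursor of secreted neuropeptides (chr5:137026392-137033351), stood at 0.43, 0.54 and 0.49 CPM with mock and at 1.46, 0.89 and 2.65 CPM with GRP, and rose by 1.76 ± 0.31 (adjusted p = 0.00483). Procr, the protein C receptor (chr2:155751117-155755471), stood at 0.89, 1.99 and 1.75 CPM with mock and at 2.97, 2.53 and 4.29 CPM with GRP, and rose by 1.13 ± 0.20 (adjusted p = 0.00463). For Vgf and Procr every GRP library was above every mock library.

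Promoters were searched for motifs of factors known from this pathway, and 4 windows with a match are shown as examples, chosen after the matches were known. Sequences were taken from RefSeq (GRCm38.p6), which gave a promoter for 11 of the 16 genes, with none in the table used for Myod1, Nos3, Vgf and Xirp1 among others. In the 250 bases before the start, searched on both strands, the AP-1 motif TGANTCA was found in Plaur and Procr, 2 of those 11, against 6.75% of all 32851 promoters. A gene is counted if any of its listed promoters held the motif, whereas the percentages here are shares of single promoters, so the measures differ. The TEAD motif CATTCC was found in Cd200r3, Il33 and Timp1, against 12.6% of all promoters. Of the 10 genes with the lowest p below the fold threshold, described further on, 7 had a promoter in the table, and the TEAD motif was in Ccn1, Nr4a3 and Scg2, the AP-1 motif in none. The cyclic AMP response element TGACGTCA (1.55% of promoters) and the CArG box (1.47%) were found in none of the 11, and of the 7 the former was in Scg2 and the latter in none. Each window below spans 120 bases, in the direction of transcription, and capitals mark the motif. Those of Plaur (chr7:24462357-24462476) and Procr (chr2:155751006-155751125), both on the plus strand, show the same form of the AP-1 motif.
Plaur: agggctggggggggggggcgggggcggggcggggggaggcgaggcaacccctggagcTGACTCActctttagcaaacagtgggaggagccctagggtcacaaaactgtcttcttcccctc
Procr: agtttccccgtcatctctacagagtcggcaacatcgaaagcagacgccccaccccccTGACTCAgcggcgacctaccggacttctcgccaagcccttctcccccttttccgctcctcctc
Those of Timp1 (chrX:20869916-20870035, plus strand) and Ccn1 (chr3:145650026-145650145, minus strand) show the TEAD motif in opposite orientations.
Timp1: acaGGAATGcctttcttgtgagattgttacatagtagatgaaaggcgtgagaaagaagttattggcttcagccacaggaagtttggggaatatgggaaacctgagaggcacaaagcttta
Ccn1: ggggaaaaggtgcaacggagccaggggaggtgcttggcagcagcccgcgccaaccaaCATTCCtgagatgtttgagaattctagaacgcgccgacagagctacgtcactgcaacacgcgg
A match describes these letters and does not show that a factor bound there.

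Myod1, Xirp1, Cd200r3 and Nos3 had the fewest counts of the 16, from 4 to 15 over the 3 mock libraries, and counting error weighs on them. Myod1, a transcription factor that commits cells to skeletal muscle (chr7:46376474-46379099), had 4, 7 and 4 counts with mock and 58, 11 and 64 with GRP, a pooled ratio of CPM of 8.15 (95% exact interval of counting error only, 4.77 to 15.0). Its log2 fold change was 2.96 ± 0.46 (adjusted p = 0.00176). Xirp1, an actin-binding protein of striated muscle (chr9:120013755-120023598), had 0, 2 and 2 counts with mock and 43, 1 and 15 with GRP, a ratio of 13.6 (5.03 to 51.4), and rose by 3.65 ± 0.71 (adjusted p = 0.0158). Myod1 lay above mock in all 3 GRP libraries, whereas the GRP libraries of Xirp1 overlapped mock through replicate 2. In the fitted libraries other than GRP, Xirp1 held at most 4 counts, and Myod1 and Nos3 exceeded 7 only in GRP+RC replicate 3. These 3 genes thus passed the filter on low counts through the group where they were high. Their p-values therefore give no separate support.

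Cd200r3, an activating receptor of myeloid cells (chr16:44943678-44981380), had 3, 1 and 8 counts with mock and 47, 10 and 63 with GRP, a ratio of 9.20 (5.07 to 18.3), and rose by 3.20 ± 0.38 (adjusted p = 7.44e-05). Nos3, the endothelial nitric oxide synthase (chr5:24364810-24384474), had 4, 0 and 5 counts with mock and 23, 6 and 21 with GRP, a ratio of 5.11 (2.49 to 11.8), and rose by 2.36 ± 0.49 (adjusted p = 0.0226). For both genes the groups did not overlap. The Nos3 count is uncertain, since 32.3% of its exon bases lie opposite Atg9b and Gm15587 on the other strand and the strand setting of the counting is not given in the sources used here. Cd200r3 and Cd300lb belong to families of similar genes, between which reads may be split.

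The last 3 genes, Cd300lb, Cyth4 and Trim66, held 36 to 56 counts over the mock libraries, next to 42 for Vgf. Cd300lb, a myeloid receptor (chr11:114922781-114934386), stood at 0.057, 0.46 and 0.80 CPM with mock and at 1.40, 0.65 and 2.20 CPM with GRP, and rose by 1.84 ± 0.40 (adjusted p = 0.0314). Cyth4, an exchange factor for ARF proteins known from blood cells (chr15:78597047-78622019), stood at 0.14, 0.75 and 1.15 CPM with mock and at 1.77, 0.96 and 2.79 CPM with GRP, and rose by 1.55 ± 0.32 (adjusted p = 0.0226). Trim66, a reader of histone marks (chr7:109449006-109508134), stood at 0.49, 0.91 and 0.45 CPM with mock and at 2.66, 0.72 and 2.46 CPM with GRP, and rose by 1.70 ± 0.36 (adjusted p = 0.0267). In all 3 genes GRP replicate 2 lay within the range of the mock libraries.

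Markers of other cell types were measured beside these genes. Summed over their list, immune markers stood at 24.7 to 28.8 CPM with mock and 26.3 to 28.9 CPM with GRP, with Ptprc, Adgre1 and Cd3e at or under 3 counts in all 6 libraries. Nearly all of that sum came from the myeloid genes Lyz2, at 19.2 to 26.3 CPM with mock and 18.0 to 25.2 CPM with GRP, and Cd68, at 2.40 to 8.34 and 3.62 to 8.24 CPM. Neither passed the test of GRP against mock (Lyz2 -0.07, adjusted p = 0.753, and Cd68 0.33, adjusted p = 0.341), and their part in the values of Cd200r3, Cd300lb and Cyth4 was not tested. Endothelial markers stood at 0.280 to 0.400 CPM with mock and 0.224 to 0.623 CPM with GRP, with Tek at or under 3 counts. Fibroblast markers stood at 3.84 to 5.19 and 4.07 to 5.98 CPM, with Col3a1 and Lum at or under 3 counts and Col1a1 (1.50 to 1.88 and 1.50 to 1.54 CPM) and Pdgfra (1.99 to 2.95 and 1.85 to 3.83 CPM) detected, and keratinocyte markers at 0.456 to 1.26 and 0.492 to 0.841 CPM, with Krt5, Krt14 and Epcam at or under 3 counts. The 12 melanocyte markers, all detected, summed to between 16039 and 18519 CPM with mock and between 15052 and 18698 CPM with GRP.

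**Figure D2:**
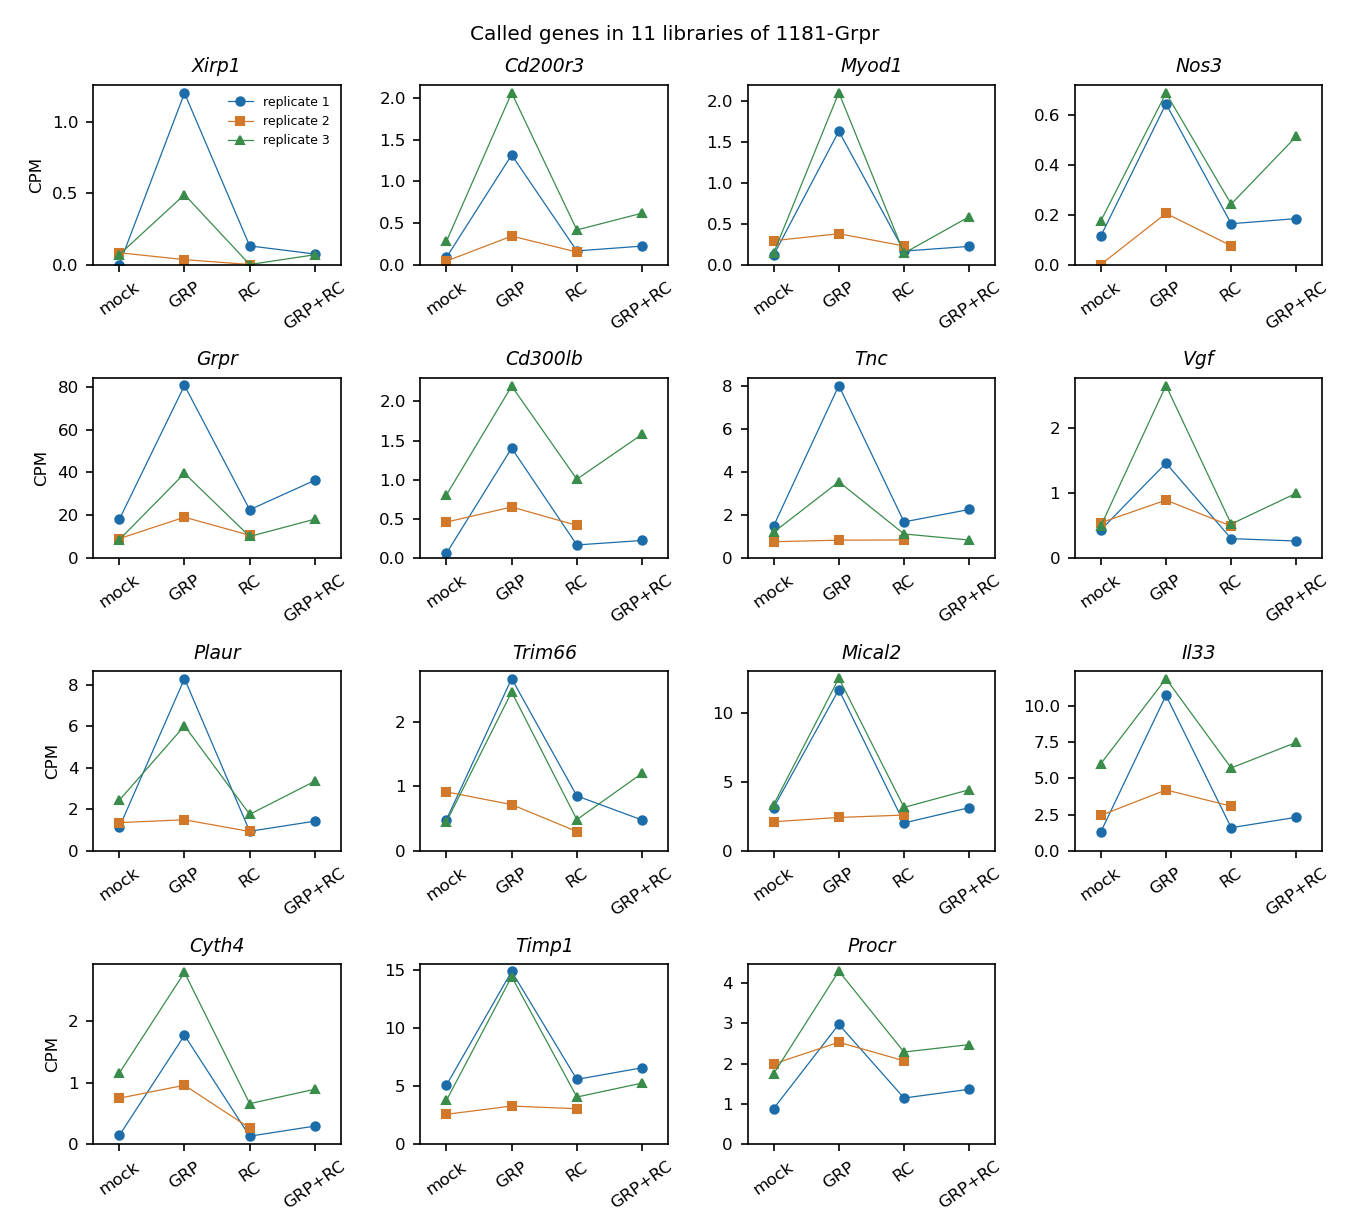
CPM of the 15 called genes named here in the 11 libraries of 1181-Grpr by treatment, 1 panel a gene with its own scale from 0. Each point is 1 library, and lines join libraries of the same replicate number. GRP replicates 1 and 3 stand above mock of their number in every panel, GRP and mock libraries overlap in 9 of the 15, and GRP+RC lies under GRP of the same number.

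The size of the response differed between replicates. For the 16 genes together, the median log2 ratio of GRP to mock within a number, with 0.1 CPM added to each value, was 2.49 in replicate 1, 0.325 in replicate 2 and 1.72 in replicate 3. Replicate 1 gave the largest ratio in 11 genes and replicate 3 in 5, and replicate 2 gave the smallest in 15. Within numbers, 13 of the genes were higher with GRP in all 3 pairs and 3 (Xirp1 and Trim66 among them) in 2. All 3 GRP libraries were above all 3 mock libraries for 6 of the 16 genes, Cd200r3, Myod1, Nos3, Grpr, Vgf and Procr, while 217 of all genes tested (1.47%) lay so and 190 (1.29%) lay the opposite way. For Grpr the largest ratio was that of replicate 3 and the smallest that of replicate 2.

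The calls depended on which replicates were used. Leaving out replicate 2 in all groups raised the count to 27, leaving out replicate 1 lowered it to 6 (Vgf, Myod1, Mical2, Cd200r3, Timp1 and Grpr), and leaving out replicate 3 left only Grpr. Without mock replicate 1 alone 4 genes were called (Mical2, Cd200r3, Timp1 and Grpr), without GRP replicate 1 alone 8 and without mock replicate 3 alone 10, whereas 26 were called without GRP replicate 2.

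**Figure D3:**
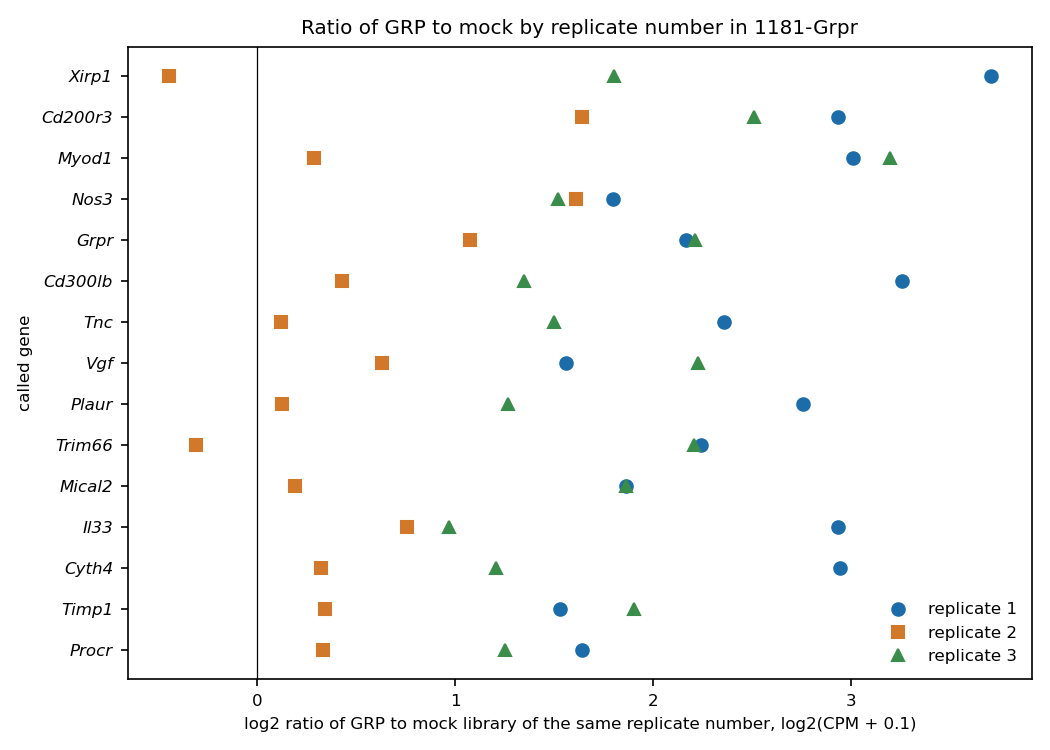
Log2 ratio of GRP to mock within each replicate number, with 0.1 CPM added to both values, for the 15 called genes named here. Each point is 1 pair of libraries. The median over all 16 called genes is 2.49 in replicate 1, 0.325 in replicate 2 and 1.72 in replicate 3.

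Below the fold threshold, the 10 genes with the lowest p included 3 immediate-early transcription factors and a YAP target. Fosl2, an AP-1 transcription factor, stood at 32.5, 35.2 and 33.2 CPM with mock and at 43.8, 40.1 and 43.9 CPM with GRP, and rose by 0.35 ± 0.05 (adjusted p = 6.72e-04). Nr4a3, an immediate-early nuclear receptor, stood at 4.25, 7.84 and 5.91 CPM with mock and at 12.4, 11.5 and 10.5 CPM with GRP, and rose by 0.98 ± 0.14 (adjusted p = 8.13e-04). In both genes the groups did not overlap, and replicate 2 was among the responding libraries of Nr4a3.

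Ccn1, a secreted matricellular protein and YAP target, stood at 5.02, 3.03 and 3.22 CPM with mock and at 14.1, 3.32 and 5.18 CPM with GRP, and rose by 0.98 ± 0.16 (adjusted p = 0.00200). Scg2, a secretogranin of secretory granules, stood at 9.31, 41.1 and 34.4 CPM with mock and at 25.8, 49.7 and 58.1 CPM with GRP, and rose by 0.75 ± 0.13 (adjusted p = 0.00453). Within each number of Scg2 GRP was higher, although mock replicates 2 and 3 exceeded GRP replicate 1. Serpinb1a, a protease inhibitor, rose by 0.62, Peak1, a pseudokinase of the cytoskeleton, by 0.48, Alas1, the first enzyme of haem synthesis, by 0.40, Egr1, an immediate-early transcription factor, by 0.30, Samd5 by 0.27 and Fndc3a by 0.22. The 6 genes that were lower fell by little, from 0.11 on the log2 scale for Pfkl, a glycolytic enzyme, to 0.34 for Ddit4l, an inhibitor of mTOR signalling, with 4931406C07Rik, Sash1, Dlc1 and Gm2115 between them. Of the 67 genes past the adjusted p, 51 were higher with GRP in all 3 pairs, 10 in 2 pairs, and 6 lower in all 3.

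Among lists of genes of the pathway, few members passed the test beyond those named. Of 2 members of the bombesin receptors and ligands that were tested, of 5 listed, Grpr rose and Nmb, a ligand, had a log2 fold change of -0.23 (adjusted p = 0.875). Of 8 tested genes of the Gq arm, the G proteins, phospholipases and kinases next to the receptor, none passed, with values from -0.025 to 0.20. Of 23 immediate-early transcription factors, 5 were higher at the adjusted p (Nr4a3, Egr3 by 0.49, Atf3 by 0.40, Fosl2 and Egr1) and none lower, 17 values were positive and the median was 0.079, beside 0.413% higher, 48.2% positive and a median of -0.003 over all genes tested. Fosl1, an AP-1 factor, was at 0.83 ± 0.31 (adjusted p = 0.335) and Fosb, another, at 0.71 ± 0.22 (adjusted p = 0.184).

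Of 20 MAP kinase and G-protein feedback genes, 1 passed, Errfi1, an inhibitor of the EGF receptor, which stood at 31.4, 34.7 and 36.0 CPM with mock and at 62.4, 33.1 and 63.5 CPM with GRP and rose by 0.64 (adjusted p = 0.0120). The list's median was 0.061, beside 0.413% higher at the adjusted p and a median of -0.003 over all genes tested. The phosphatases of MAP kinases Dusp2 and Dusp5 were at 0.92 ± 0.59 (adjusted p = 0.699) and 0.60 ± 0.18 (adjusted p = 0.156). Of 10 calcium and cyclic AMP feedback genes none passed, with a median of 0.061, the largest value being 0.46 for Nfil3, a transcriptional repressor (adjusted p = 0.0822). Of 18 YAP and TAZ targets 2 passed, beside the same 0.413%: Ccn1, and Myof, a membrane repair protein, by 0.40. Their list had a median of 0.082. Over 19 alternative settings Ccn1 lost the adjusted p in 8 and Myof in 14. Ccn2, the other well-known target, was at 0.61 ± 0.15 (adjusted p = 0.0721).

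In the list of pericellular proteolysis and matrix 4 of 15 tested genes were called (Tnc, Plaur and Timp1 among them) and none was lower, with a median of 0.119, beside 0.108% called over all genes tested. The other 11 did not pass, and 6 of the 15 values were negative, among them -0.33 ± 0.36 for Plau, the urokinase whose receptor Plaur encodes (adjusted p = 0.858). Of 8 secreted factors Hbegf, a ligand of the EGF receptor, rose by 0.48 (adjusted p = 0.0271), and the median was 0.311. Lif, a cytokine of the interleukin-6 family, was at 1.56 ± 0.50 (adjusted p = 0.216), with 0.086, 0.83 and 0.49 CPM with mock and 2.16, 0.44 and 1.11 CPM with GRP, and Il11, of the same family, was at 0.91 ± 0.34 (adjusted p = 0.323).

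Among the genes that the study scored on these samples, a choice that makes them no independent evidence, 2 of 16 tested were higher at the adjusted p, Tnc and Ccn1. Over all genes tested 0.413% were higher, and the median of the scored genes was 0.045. None of 12 melanocyte markers passed, 11 of the 12 values were negative, and they ranged from -0.11 for Ednrb, the endothelin receptor of melanocytes, to 0.006. Of the fibroblast, immune and keratinocyte markers 3, 2 and 1 were tested and none passed, and no endothelial marker was tested. Of the 8 genes used to check the labels, Grpr alone passed.

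**Figure D4:**
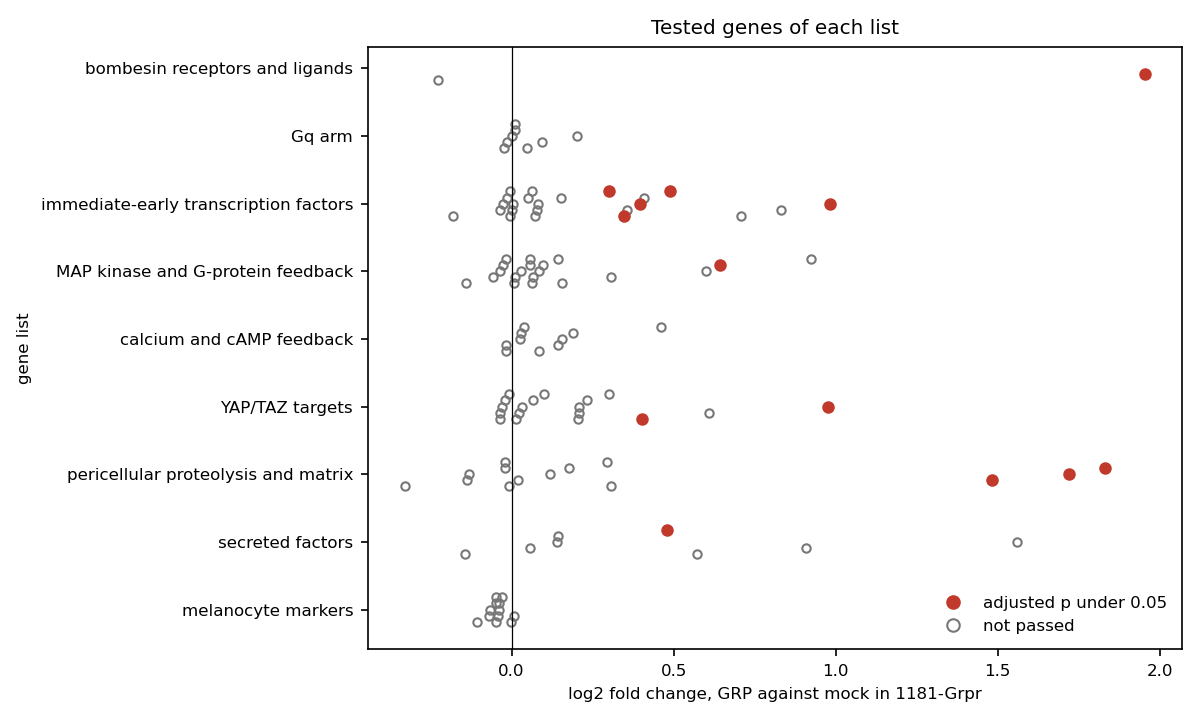
Log2 fold change of GRP against mock in 1181-Grpr for the tested members of each list. Each point is 1 gene, filled red where the adjusted p was under 0.05 and open where it was not, and vertical offsets within a list have no meaning. Most points lie near 0, and the called genes of the proteolysis and matrix list stand apart from its other members near 0.

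RC, added together with GRP, addressed which changes needed an active receptor. These contrasts share their libraries with the one above, so each is given by its own values. RC alone called no gene against mock (lowest adjusted p = 0.0551, 718 genes at an unadjusted p under 0.05 by edgeR, 6 genes called by DESeq2), and the 16 genes had a median log2 fold change of 0.095, with 10 positive and 6 negative. GRP+RC against mock called none (679 genes at an unadjusted p under 0.05 by edgeR, none called by DESeq2), with 1 gene past the adjusted p, Grpr, at 0.94 (adjusted p = 0.0256). The 16 genes ranged there from -0.34 to 1.41, with a median of 0.30.

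GRP+RC against GRP, with 2 libraries of GRP+RC, called 6 genes (0.0406% of 14770), all lower with the antagonist and all among the 16. Among them Cd200r3 fell by 1.98 ± 0.34 on the log2 scale (adjusted p = 0.0174), Tnc by 1.77 ± 0.27 and Timp1 by 1.17 ± 0.18 (both adjusted p = 0.00467), and Mical2 by 1.50 ± 0.25 (adjusted p = 0.00976). Grpr fell by 1.02 ± 0.12 (adjusted p = 4.19e-04), to 36.3 and 18.1 CPM in GRP+RC replicates 1 and 3, which stayed above mock of the same number. The 16 values had a median of -1.48 and all were negative, but the genes were chosen for high levels in the same GRP libraries, so that the choice favours this sign and supports nothing. In replicates 1 and 3, the share of the rise in CPM that was left with RC had a median of 15.1% over the 16 genes, from -3.33% for Cyth4 to 39.3% for Nos3, a description that rests on the same choice. This contrast too depended on the block and the library kept. No gene was called without the block or with GRP+RC replicate 2 kept, and 19 were called without replicate 2. Leaving out replicate 1 or 3 leaves too few GRP+RC libraries for a count. DESeq2 called 3 genes, 1 higher and 2 lower with the antagonist, and none of them was among the 6.

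Line 1181 with the control plasmid asked whether GRP acts without added receptor. In 1181-Ctrl Grpr was between 0 and 0.0914 CPM, and GRP against mock called no gene (513 genes at an unadjusted p under 0.05 by edgeR). Of the 16 genes 8 were tested there, and none passed, with values from -0.36 for Trim66 to 0.75 for Il33. The lines also differed under mock treatment in some of these genes: Tnc, too low to be tested in 1181-Ctrl, stood at 0.038 to 0.061 CPM in its mock libraries, against 0.75 to 1.48 CPM in those of 1181-Grpr. The interaction of GRP with the line called none of 15286 genes (0%), with a lowest adjusted p of 0.0819 and 939 genes at an unadjusted p under 0.05, while DESeq2 called 3. For the 16 genes this difference ranged from 0.60 to 3.86, with a median of 1.65, a sign favoured by choosing them in 1181-Grpr, and the lowest adjusted p among them was 0.194. An effect particular to the receptor-bearing line was thus not shown by this test.

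The comparison with 1014-Grpr set the response beside that of a line with more receptor RNA. There 474 genes were called higher with GRP (3.45% of 13730), of which 412 were tested in 1181-Grpr. Of these 327 (79.4%) had a positive log2 fold change, 36 passed the adjusted p and 11 were called, with a median of 0.111. Over all genes tested in 1181-Grpr 48.2% were positive, 0.413% were higher at the adjusted p and 0.108% were called. In 1181-Ctrl, where fewer genes of this kind were tested, 155 of 343 (45.2%) were positive, with a median of -0.009, beside 47.9% positive over all genes tested there. Of 150 tested genes called lower in 1014-Grpr, 85 (56.7%) were negative in 1181-Grpr, with a median of -0.041, and none was called. Over all genes tested in 1181-Grpr 7645 of 14770 were negative. In CPM, the rise in 1181-Grpr had a median of 4.23% of that in 1014-Grpr over the 412 genes (quartiles 0.840% and 10.7%), and within numbers it was 8.16% in replicate 1, 0.369% in replicate 2 and 4.97% in replicate 3.

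**Figure D5:**
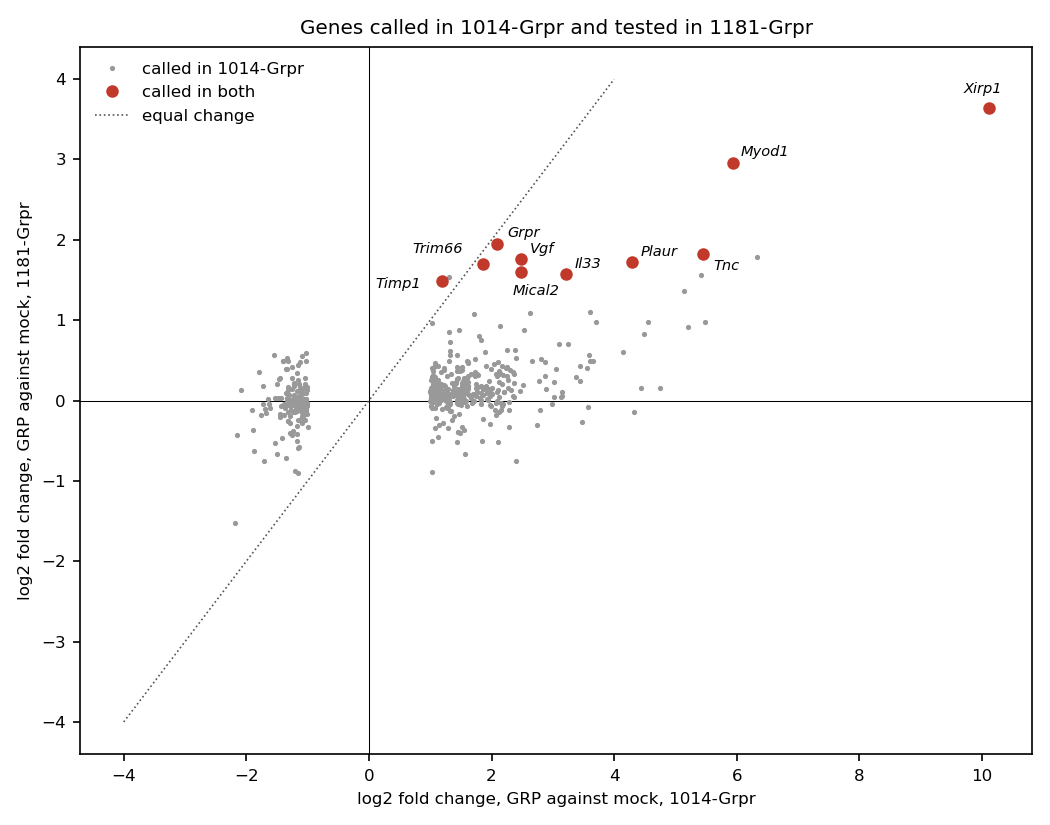
Log2 fold change of GRP against mock in 1014-Grpr (horizontal) and 1181-Grpr (vertical) for the genes called in 1014-Grpr and tested in 1181-Grpr. Each point is 1 gene, red where called in both lines, and the dotted line marks equal change. Of the 412 genes called higher in 1014-Grpr 327 lie above 0 and most lie under the dotted line, and the horizontal position of Xirp1 depends on the prior count of the fit, since its mock libraries in 1014-Grpr held no count.

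Among the 16 genes 11 were also called higher in 1014-Grpr (3.45% of all genes tested there), 8 in 1057 (4.95% of 14195) and 8 in 1064 (3.48% of 13794). Tnc, Plaur and Timp1 were among those called in all 3 of these lines, and Cd200r3 and Nos3 were called in none. The difference between 1181-Grpr and 1014-Grpr was called for 574 of 15303 genes (3.75%), 413 with a smaller log2 change in 1181-Grpr and 161 with a larger one. Of the 16 genes it was called for 8. Among these it was negative for Tnc, which stood at 1.72 to 3.71 CPM with mock and 53.0 to 159 CPM with GRP in 1014-Grpr, at -3.55, for Plaur at -2.55, for Myod1 at -2.97, for Il33 at -1.63 and for Xirp1, whose 1014-Grpr libraries held no count with mock and 2.34 to 9.24 CPM with GRP.

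The difference was positive for Cd200r3 at 2.43 (adjusted p = 0.0271) and for Nos3 at 1.62 (adjusted p = 0.0493). In 1014-Grpr Cd200r3 stood at 0 to 0.15 CPM with mock and 0.079 to 0.23 CPM with GRP, and Nos3 at 0.30 to 0.57 CPM with mock and 0.52 to 0.96 CPM with GRP. For 8 of the 16 genes (Cd200r3, Nos3, Cd300lb, Vgf, Il33, Cyth4, Timp1 and Procr) the rise in CPM was larger in 1181-Grpr than in 1014-Grpr. For 5 others, among them Xirp1, Grpr, Tnc and Plaur, it was a smaller share of the 1014-Grpr rise than the share of 1014-typical transcripts in these libraries. Those transcripts are present in the 1181-Grpr libraries, at 31.6% ± 0.943 (SD) of the 1014-Ctrl level with GRP and 31.6% ± 0.215 with mock. So few libraries cannot show that this level did not move. The part of those transcripts in the response was not tested.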

How the data were processed

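RNA was poly(A)-selected and sequenced with a stranded kit, aligned and counted by the authors with STAR against mm10 (GRCm38, GENCODE M13), with FastQC 0.11.5 among the tools in the submitters' processing notes. How multi-mapping reads were counted is not given in the sources used here. The authors deposited raw counts per gene and TPM values, and 12 TPM columns of another line, written with decimal commas, were not used. Of 50600 rows 99.6% matched gene names and positions in GENCODE M21.

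The deposited counts of 11 libraries of 1181-Grpr were fitted in edgeR 4.0.16 (R 4.3.3) with filterByExpr, TMM and the replicate number as a block. Interactions were fitted with 1181-Ctrl or 1014-Grpr, with a block within each line. The numbers were taken to pair the libraries because deviations from the group means correlated for mock and GRP of the same number, at 0.845, 0.783 and 0.669 (lowest of any same-numbered pair 0.587, mean of differing numbers -0.404). Deviations within a group cancel out, so positive correlations within numbers force negative ones between numbers, and the latter are no separate evidence. The pairing is a property of the data, since the labels give the number without its meaning. They do not say that replicates are separate cultures, so that p-values measure only the spread between these samples. Between replicates of 1 group the counts differed beyond sampling noise.

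Printed CPM use TMM over all 72 libraries. The standard error of a log2 fold change is its size divided by the root of F. Alternatives were DESeq2 1.42.0, other scaling and filters, other sets of libraries, and limma 3.58.1 on log2(TPM + 1) of the deposited TPM. On simulated counts with 14770 genes, GRP against mock recovered 91% of changes of 1.5 and 97% of changes of 2 (log2), with 1 false call, and the difference from 1181-Ctrl recovered 81% and 87% over 15286 genes, with 2 false calls. The simulated counts were drawn from the fitted block model and its own spread, with changed genes picked at random over all levels. The false calls therefore describe that model alone and do not bear on the calls lost under other fits. Recovery of effects that differ in size between replicates, as those of the 16 called genes did, was not tested. Genes were named if called, or if among the first 10 by p past the adjusted p alone, and for each list the members with the largest changes were given. The members and gene lists were chosen with earlier results of these data known. Promoters came from RefSeq and figures were drawn with matplotlib 3.10.9. Intervals cover counting error only. Counts of genes cover all genes tested, but 1 of the 16 called genes and 1 cell type marker are not reported here by name and are left out of the plots.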

Additional observations from a re-analysis of the deposited data

Results flagged for a closer look

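The GRP effect in 1181-Grpr differed from that in 1014-Grpr in 574 genes by the test of the difference itself (edgeR quasi-likelihood interaction). Among the genes named in the report, the log2 effect in 1181-Grpr minus that in 1014-Grpr was negative for Xirp1 (-6.50, a value that depends on the prior count, since mock libraries of 1014-Grpr held no count), Ccn1 (-4.46), Nr4a3 (-3.57), Tnc (-3.55), Myod1 (-2.97), Plaur (-2.55), Fosl2 (-1.79), Egr1 (-1.77), Il33 (-1.63), Peak1 (-1.14) and Scg2 (-1.06). It was positive for Cd200r3 (2.43) and Nos3 (1.62), both of which are at low counts in both lines.

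Outside the comparisons of the report, the library labelled 1014-Ctrl mock replicate 2 held 48.1 CPM of Grpr, where the other libraries of that line held at most 0.0334 CPM. It also held 172 CPM of Xist and 64.3 CPM of Ddx3y. It was left out of the choice of 1014-typical transcripts.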

How the results depend on the processing

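The 16 genes called for GRP against mock became 8 by DESeq2 (5 higher, 3 lower), 26 with no low-count filter (24 higher, 2 lower), 67 by the adjusted p alone, 9 with a mean of at least 1 CPM (a filter chosen after seeing the data) and 0 with no replicate block, with GRP+RC replicate 2 kept, and by limma on log2(TPM + 1) (967 genes at an unadjusted p under 0.05). RLE size factors gave 16, the 6 mock and GRP libraries alone 11, a joint fit with 1181-Ctrl 16 and the 1014-typical level as a covariate 17. Leaving out replicates gave 1 to 27. For GRP+RC against GRP, the 6 became 3 by DESeq2, none of them among the 6, and 23 with no filter. They became 0 with no replicate block, 0 with GRP+RC replicate 2 kept and 19 without replicate 2. For RC against mock, the 0 became 6 by DESeq2 and 1 with no filter, and leaving out replicates gave 0. For GRP+RC against mock, the 0 became 1 without replicate 2, the only replicate whose removal keeps both GRP+RC libraries of the fit. For the difference from 1181-Ctrl, the 0 became 3 by DESeq2 and 10 with no filter, with 0 to 2 on leaving out replicates, and for the difference from 1014-Grpr the 574 became 282 with no replicate block, with 431 to 663 on leaving out replicates. The difference in 1014-typical level, which 3 against 3 libraries cannot bring past the threshold, took both signs and ranged from -0.890 to 0.382 percentage points over all alternatives and from -0.629 to 0.382 on leaving out replicates. The replicate block changed no other of these counts. The cause of these shifts was not tested.

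Among those alternatives, no named gene changed direction where it passed the adjusted p in the main fit or in the alternative. Changes of direction among genes that passed in neither were not counted. Over 287 fits of the 16 genes, 175 kept an adjusted p under 0.05 and 112 lost it, whatever the size of the fold change. Grpr was called in 17 of 20 settings, Cd200r3 and Timp1 in 15, Mical2 in 14, and Nos3, Xirp1 and Cyth4 in 8. Depth limits the genes of lowest level: over the 3 mock libraries Xirp1 held 4 counts, Nos3 9, Cd200r3 12 and Myod1 15.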
